A study of Mus musculus with 4 samples.

Results

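The genes described here encode integrins, their cell-surface ligands, selectins, the adhesion receptors CD44 and CD47, semaphorins, plexins and neuropilins. They were taken by gene symbol, without regard to their values, and numbered 68 of the 23284 genes in the files: 18 integrin alpha chains, 8 integrin beta chains, 5 ligands of the immunoglobulin family (Icam and Vcam1), 4 selectin genes including the selectin ligand gene Selplg, Cd44, Cd47, 20 semaphorins, 9 plexins and 2 neuropilins. The RNA was that of cultured mouse macrophages that had been differentiated from bone marrow cells. The 4 libraries, 1 for each group, were Spic-/- with LPS, Spic-/- without LPS, control (Spic+/+) with LPS and control without LPS. Spic is the gene of Spi-C, a heme-inducible macrophage transcription factor of the Ets family, and LPS is the bacterial lipopolysaccharide that stimulates Toll-like receptor 4. All cultures, controls included, had been kept for 18 h in 40 µM hemin (the sample descriptions write the same number in mM), and LPS was given at 100 ng/ml for 4 h. Sample titles call the knockout conditional, while the allele, a Cre driver and the age of the animals are not given in the sources used here. With 1 library a group, no difference has a replicate check, and none was tested.

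Integrins are heterodimers of an alpha and a beta chain that bind extracellular matrix or other cells. The beta 2 integrins of leukocytes share the chain encoded by Itgb2 and differ in their alpha chain: Itgal gives LFA-1, whose main ligand is ICAM-1, and Itgam gives Mac-1, which also acts as a complement receptor. The alpha 4 chain (Itga4) gives VLA-4, which binds VCAM-1 and fibronectin. Semaphorins are guidance proteins that signal through plexins, and neuropilins are co-receptors of the secreted class 3 semaphorins and of vascular endothelial growth factor.

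Levels are FPKM, that is, fragments divided by exon length and by a library scaling factor, which allow levels of different genes to be set side by side. Differences are log2 ratios of (FPKM + 1), which understate those of low genes. A comparison counted the genes with 5 FPKM or more in either of its libraries, and they were called at 2-fold for LPS and at 1.5-fold for genotype. Where a ratio of FPKM is given with an interval, this is the exact (Clopper-Pearson) 95% interval from estimated fragments, and it covers counting error only, not variation between cultures. Depth was read from the steps between the lowest values: a level of 1 FPKM meant some 8.07 fragments per kilobase in knockout with LPS, 12.9 in knockout without LPS, 10.6 in control with LPS and 15.6 in control without LPS. Spic itself stood at 80.8 and 14.98 FPKM in the knockout with and without LPS, against 406 and 53.1 FPKM in the control with and without LPS. Of the marker genes searched, 9 of 9 macrophage markers in the files reached 5 FPKM, and Emr1, the gene of the F4/80 antigen, ranged from 439 to 790.3 FPKM. Markers of dendritic cells, T and NK cells, endothelial cells, erythroid cells and mast cells did not exceed a summed 1.62 FPKM in any library, and B cell markers did not exceed 2.197 FPKM. Stromal markers summed to 388 FPKM in knockout with LPS, 332 in knockout without LPS, 672 in control with LPS and 619 in control without LPS. The sums of neutrophil markers were 164 and 44.0 FPKM in the knockout with and without LPS, against 273 and 52.1 FPKM in the control with and without LPS, mostly from S100a8, Csf3r and S100a9. Among the others, Camp reached 4.82 FPKM in control with LPS and Ngp 2.99 FPKM in knockout with LPS, while Mpo was at 0. Of 5 platelet markers, Pf4 reached 5 FPKM, at 582.3 and 329 FPKM in the knockout with and without LPS against 718 and 327 FPKM in the control with and without LPS, and the other 4 stayed under 1 FPKM.

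Of the 68 genes, 29 reached 5 FPKM in at least 1 library, 6 more reached 1 FPKM, 28 stayed between 0 and 1 FPKM, and 5 (Itgad, Itgae, Itgb6, Sema4f and Sema5b) were listed at 0 throughout. On a mean over the 4 libraries, Icam1, Itgb2, Cd44, Itgam, Nrp2, Itgb1, Itga5, Cd47, Sema4d and Plxnb2 were the most abundant. Itgb2, the common chain of the leukocyte integrins, stood at 395 and 416 FPKM in the knockout with and without LPS and at 329 and 356 FPKM in the control with and without LPS. Integrins typical of platelets and epithelia were low: Itga2b, the platelet alpha IIb chain gene, stayed under 0.2 FPKM, Itgb3 reached 0.416 FPKM and the hemidesmosome chain gene Itgb4 stayed under 0.1 FPKM. Selplg, which encodes the P-selectin ligand PSGL-1, stood between 42.3 and 59.6 FPKM in the 4 libraries.

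**Figure D1:**
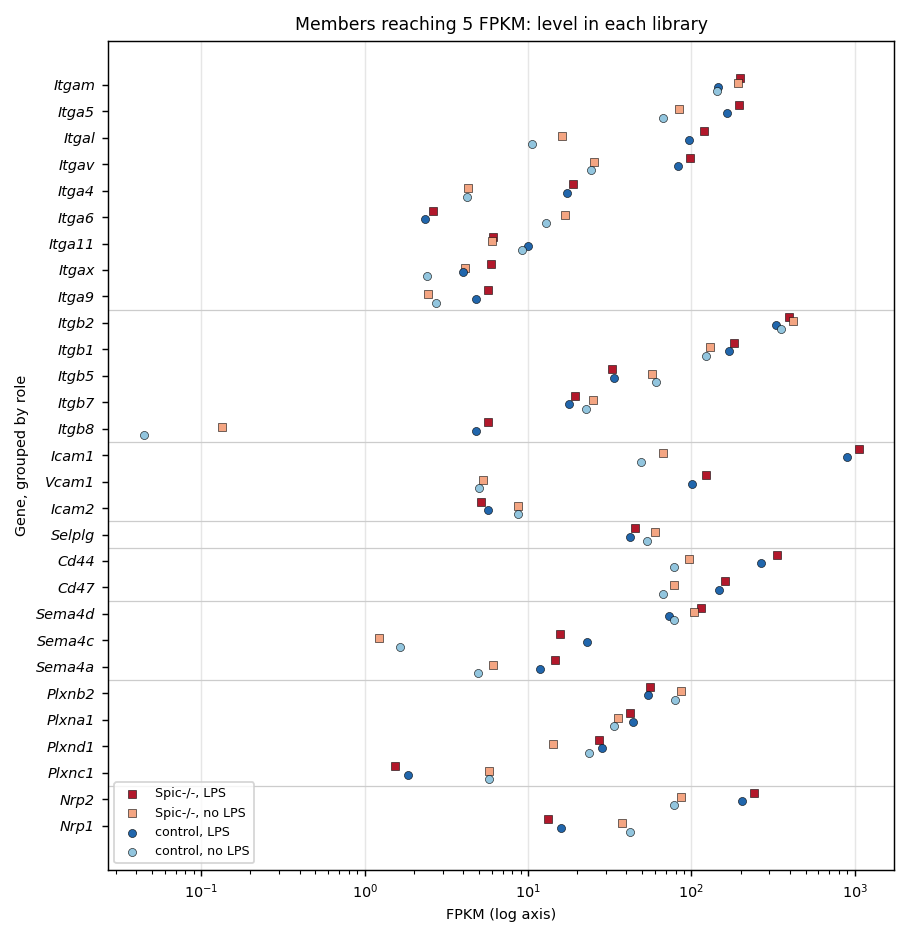
FPKM (log axis) of the 29 genes that reached 5 FPKM in at least 1 library, grouped by role, with squares for the Spic-/- libraries and circles for the control libraries, dark with LPS and light without. Each symbol is 1 library. For Icam1, Vcam1, Itgal, Itgb8 and Sema4c the dark symbols stand far to the right of the light ones in both genotypes, and for Itga6, Nrp1 and Plxnc1 to the left.

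With LPS, the ligand genes Icam1 and Vcam1 were higher in both genotypes, as were Itgal and Itga4, alpha chain genes of integrins that bind them, while Itgam, whose product also binds ICAM-1, was level. Icam1, which lies on chromosome 9 at 21015985 to 21028817 (GRCm38, plus strand), stood at 1057 FPKM in knockout with LPS against 66.7 FPKM without, and at 892 FPKM in control with LPS against 49.1 FPKM without. The ratios were 15.8 (15.1 to 16.6) and 18.2 (17.3 to 19.1). Vcam1 (chromosome 3, 116109949 to 116129688, minus strand) stood at 122 FPKM in knockout with LPS against 5.33 FPKM without, and at 101.6 FPKM in control with LPS against 5.01 FPKM without, ratios of 22.9 (19.8 to 26.7) and 20.3 (17.6 to 23.3). Each LPS library was thus far above its partner, and the intervals of the 2 genotypes overlapped for Vcam1 and not for Icam1. By log2 ratio, Vcam1 and Icam1 stood 90th and 113th from the top among 8098 genes in the knockout, and 102nd and 100th among 8050 genes in the control. In these bulk libraries more cells expressing a gene and more RNA per cell cannot be told apart.

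Of the other ligands of the same family, Icam2 was lower with LPS, and Icam4 and Icam5 were higher but rested on few fragments. Icam2, an ICAM expressed on endothelium and leukocytes, was at 5.18 FPKM in knockout with LPS against 8.69 without, and at 5.65 FPKM in control with LPS against 8.63 without (log2 ratios of −0.65 and −0.53). Icam4 and Icam5 lie directly downstream of Icam1 on the same strand. Icam4 reached 1.24 FPKM in knockout with LPS against 0.442 without, and 1.08 FPKM in control with LPS against 0.275 without, all of which rested on 9 fragments or fewer. Icam5 stayed under 0.5 FPKM. It was at 0.447 FPKM in knockout with LPS against 0.111 without, and at 0.374 FPKM in control with LPS against 0.184 without. These values rested on about 11 fragments or fewer.

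In the knockout, 12 of 29 genes that passed the 5 FPKM minimum were at least 2-fold higher with LPS (Cd44, Cd47, Icam1, Itga4, Itga5, Itgal, Itgav, Itgb8, Nrp2, Sema4a, Sema4c and Vcam1), where 13.7% of all genes were, and 3 were at least 2-fold lower (Itga6, Nrp1 and Plxnc1), where 7.74% of all genes were. In the control, 11 of 26 were at least 2-fold higher, against 12.3% of all genes, and 3 were lower, against 6.5% of all genes. The called genes were those of the knockout except Itgb8, which missed the 5 FPKM minimum in the control. The median log2 ratio was 0.49 over these genes and 0.12 over all genes in the knockout, and 0.32 and 0.11 in the control. Some genes passed the minimum only through the library in which they were higher. Itga4, Itga9, Itgax, Itgb8 and Sema4c did so in the knockout, and Itga4, Sema4a and Sema4c in the control. Of the 3 genes called lower, Itga6 and Plxnc1 passed it only through the library without LPS in both genotypes. These counts and medians are therefore a description. Median-ratio scaling left Cd47 (0.86 in knockout and 0.97 in control) and Sema4a (0.97 and 0.98) under 2-fold, and it moved the median of all genes to −0.04 in knockout and −0.05 in control.

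Among the beta 2 integrin genes, Itgal was higher with LPS while Itgam and Itgb2 were near level. Itgal (chromosome 7, 127296260 to 127335138, plus strand) stood at 119.8 FPKM in knockout with LPS against 16.1 FPKM without, a ratio of 7.46 (6.94 to 8.02), and at 96.5 FPKM in control with LPS against 10.6 FPKM without, a ratio of 9.09 (8.40 to 9.86). Itgam, which lies on the same chromosome at 128062640 to 128118491, was level with LPS: 199 against 193 FPKM in the knockout and 146 against 144 FPKM in the control (log2 ratios of 0.05 and 0.02). Itgb2 had log2 ratios of −0.07 in the knockout and −0.12 in the control. Within each library, where scaling between libraries has no part, the ratio of Itgal to Itgam was 0.602 (0.579 to 0.626) in knockout with LPS against 0.0834 (0.0778 to 0.0892) without, and 0.66 (0.635 to 0.686) in control with LPS against 0.0736 (0.0681 to 0.0794) without. As a share of the 4 alpha chain genes that pair with Itgb2, Itgal made up 36.9% with LPS against 7.55% without in the knockout, and 39.1% with LPS against 6.75% without in the control. Itgax, the gene of the CD11c chain, had 5.97 FPKM with LPS against 4.11 without in the knockout and 4.00 FPKM with LPS against 2.41 without in the control. Its share of the 4 stayed between 1.53% and 1.93%.

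Among alpha chains that pair with beta 1, members went in both directions. Itga4 stood at 18.7 FPKM in knockout with LPS against 4.32 FPKM without, a ratio of 4.34 (3.93 to 4.81), and at 17.3 FPKM in control with LPS against 4.24 FPKM without, a ratio of 4.08 (3.72 to 4.47). Itga5, the alpha chain gene of the main fibronectin receptor, was at 195 against 84.2 FPKM in the knockout with and without LPS and at 165 against 66.7 FPKM in the control (ratios of 2.31, 2.22 to 2.40, and 2.47, 2.38 to 2.56). Itga6, a laminin receptor chain gene, had the lowest LPS ratio of the genes counted: 2.64 FPKM in knockout with LPS against 16.9 FPKM without, a ratio of 0.156 (0.124 to 0.195), and 2.34 FPKM in control with LPS against 12.8 FPKM without, a ratio of 0.182 (0.147 to 0.225). Itga4 therefore stood 7.11-fold above Itga6 in knockout with LPS and 7.40-fold in control with LPS, whereas without LPS it stood at 0.255 and 0.331 of Itga6 in the knockout and the control. The shared beta chain gene Itgb1 was at 183 against 130 FPKM with and without LPS in the knockout and at 169.98 against 122 FPKM in the control, log2 ratios of 0.49 and 0.47. Itgb7, whose product pairs with alpha 4 in the gut-homing integrin, was at 19.5 against 24.9 FPKM with and without LPS in the knockout and at 17.9 against 22.7 FPKM in the control. Itga9, which encodes another VCAM-1 and tenascin binding chain, stood at 5.67 against 2.45 FPKM with and without LPS in the knockout and at 4.83 against 2.72 FPKM in the control.

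Of the alpha v integrins, which bind vitronectin and activate latent TGF-beta, the alpha chain gene was higher with LPS. Itgav stood at 98.0 FPKM in knockout with LPS against 25.3 FPKM without (3.87, 3.68 to 4.07) and at 82.3 FPKM in control with LPS against 24.4 FPKM without (3.37, 3.22 to 3.54). Of its beta partners, Itgb5 was at 32.9 against 57.3 FPKM with and without LPS in the knockout and at 33.4 against 60.5 FPKM in the control (log2 ratios of −0.78 and −0.84). Itgb8 went the other way, at 5.66 FPKM in knockout with LPS against 0.134 FPKM without, and at 4.83 FPKM in control with LPS against 0.0443 FPKM without. Its values without LPS rested on about 14 fragments in the knockout and 6 in the control, so that the ratios of FPKM, 42.4 (25.2 to 79.2) and 109 (47.0 to 283), are wide. Even with LPS, Itgb8 was at 0.172 and 0.144 of Itgb5 in the knockout and the control. Itgb3 stayed under 0.5 FPKM and Itgb6 was listed at 0.

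**Figure D2:**
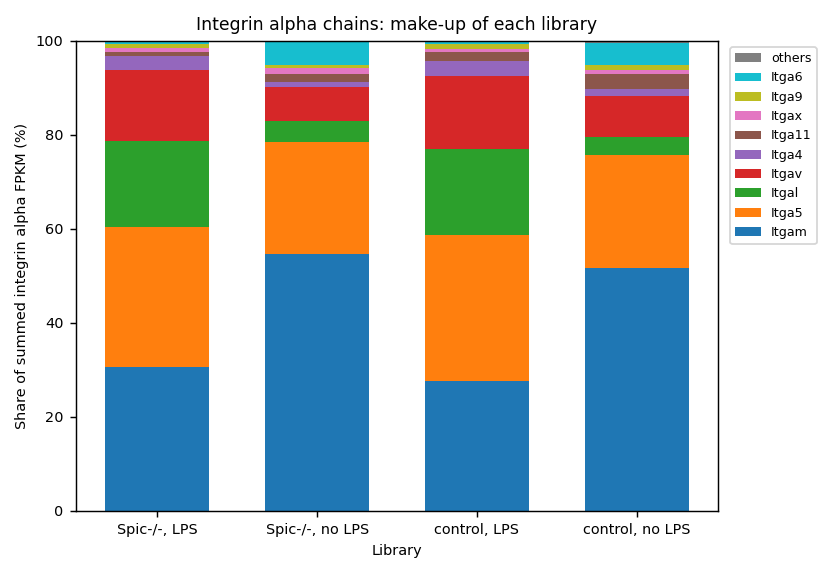
Share (%) of each alpha chain gene in the summed FPKM of all 18 integrin alpha genes, in each of the 4 libraries (1 bar a library, with LPS to the left of without LPS in each genotype). Itgam made up 30.5% with LPS against 54.5% without in the knockout and 27.6% against 51.7% in the control, while Itgal made up 18.4% against 4.55% and 18.2% against 3.81%.

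Cd44, the hyaluronan receptor gene, stood at 333 FPKM in knockout with LPS against 96.2 FPKM without, and at 265.5 FPKM in control with LPS against 77.9 FPKM without, ratios of 3.46 (3.31 to 3.63) and 3.41 (3.26 to 3.57). The intervals of the genotypes overlapped. Cd47, whose product binds SIRP alpha and thrombospondin and restrains phagocytosis, was at 162 against 78.7 FPKM with and without LPS in the knockout and at 147 against 66.999 FPKM in the control, log2 ratios of 1.03 and 1.12. Its receptor gene Sirpa was level, at 435 FPKM in knockout with LPS and 435 without, and at 391 FPKM in control with LPS and 422 without. Selplg was at 45.3 against 59.6 FPKM with and without LPS in the knockout and at 42.3 against 53.2 FPKM in the control (log2 ratios of −0.39 and −0.32). Sele, the gene of the endothelial E-selectin, was at 0.504 FPKM in knockout with LPS and 0.139 FPKM in control with LPS, about 11 and 4 fragments, and was listed at 0 in both libraries without LPS. Selp, the P-selectin gene, stayed under 0.1 FPKM.

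Semaphorin RNA came almost wholly from class 4, the transmembrane semaphorins of immune cells, which made up 95.3% of the summed semaphorin FPKM in knockout with LPS, 93.6% in knockout without LPS, 92.7% in control with LPS and 91.95% in control without LPS. Sema4c, which encodes a ligand of plexin B2, stood at 15.8 FPKM in knockout with LPS against 1.22 FPKM without, and at 23.1 FPKM in control with LPS against 1.64 FPKM without, ratios of 12.9 (9.69 to 17.1) and 14.1 (11.4 to 17.7). Sema4a was at 14.5 against 6.13 FPKM with and without LPS in the knockout and at 11.8 against 4.93 FPKM in the control, log2 ratios of 1.12 and 1.11. Sema4d, the CD100 gene, was the most abundant semaphorin gene in every library, and its values are given with the genotype comparison. Sema7a, a membrane-anchored semaphorin gene whose product binds beta 1 integrins and plexin C1, stayed between 2.15 and 2.99 FPKM, and Sema6b between 2.35 and 4.15 FPKM. Sema4b had 0.763 FPKM with LPS against 0.971 without in the knockout and 0.656 FPKM with LPS against 1.54 without in the control. Among the secreted class 3 genes, Sema3c reached 1.02 FPKM with LPS against 0.391 without in the knockout and 0.834 FPKM with LPS against 0.162 without in the control. The other 6 class 3 genes stayed under 0.5 FPKM.

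Of the 4 plexin genes counted, 1 was at least 2-fold lower with LPS in each genotype and none higher. Of all genes, 7.74% in knockout and 6.5% in control were lower, and 13.7% and 12.3% higher. Plxnc1, the receptor gene of SEMA7A, was at 1.54 FPKM in knockout with LPS against 5.79 FPKM without, a ratio of 0.266 (0.21 to 0.334), and at 1.85 FPKM in control with LPS against 5.80 FPKM without, a ratio of 0.319 (0.263 to 0.383). Plxnb2, the receptor gene of SEMA4C and SEMA4D, was at 55.96 against 86.7 FPKM with and without LPS in the knockout and at 54.3 against 79.3 FPKM in the control (log2 ratios of −0.62 and −0.54). Plxna1, whose product acts with TREM2 and DAP12 in osteoclasts and dendritic cells, was at 42.1 against 35.7 FPKM in the knockout and at 43.6 against 33.4 FPKM in the control. Plxnd1 had LPS log2 ratios of 0.89 in the knockout and 0.27 in the control. Plxna2 stayed between 0.906 and 1.72 FPKM, and Plxna3, Plxna4, Plxnb1 and Plxnb3 under 1 FPKM.

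The neuropilin genes went opposite ways. Nrp1 was at 13.2 FPKM in knockout with LPS against 37.6 FPKM without, a ratio of 0.351 (0.313 to 0.394), and at 15.8 FPKM in control with LPS against 42.1 FPKM without, a ratio of 0.377 (0.343 to 0.413). Nrp2 was at 242 against 86.6 FPKM with and without LPS in the knockout, a ratio of 2.80 (2.72 to 2.88), and at 204 against 78.5 FPKM in the control, a ratio of 2.60 (2.52 to 2.67). Within a library, Nrp2 stood 18.4-fold (16.5 to 20.4) above Nrp1 in knockout with LPS against 2.31-fold (2.18 to 2.43) without, and 12.8-fold (11.8 to 14.0) in control with LPS against 1.86-fold (1.78 to 1.96) without. Nrp1 (chromosome 8, 128358604 to 128503363) and the integrin gene Itgb1 (128685654 to 128733200) are neighbours on the plus strand.

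**Figure D3:**
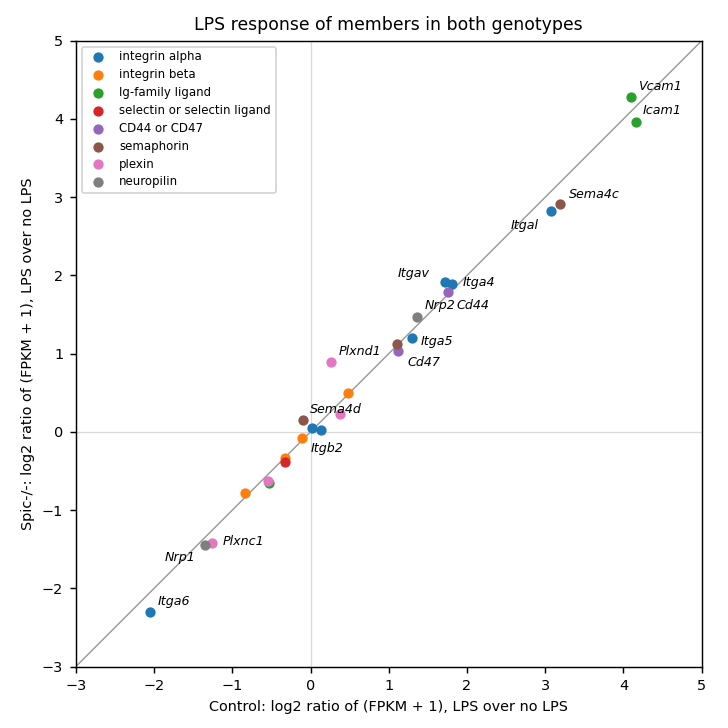
LPS response as log2 ratio of (FPKM + 1), LPS over no LPS, in Spic-/- (vertical axis) against control (horizontal axis) for the 26 genes that passed the minimum in both genotypes. Each point is 1 gene from 4 libraries, coloured by role, and the line marks equal responses. Points lie close to the line, and Plxnd1 stands farthest above it, at 0.89 in the knockout and 0.27 in the control.

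The LPS responses of the 2 genotypes, which share no library, were close for these genes. Over the 26 genes that passed the minimum in both, Pearson's r of the log2 ratios was 0.993 and Spearman's rho 0.990, a description across genes that are not independent replicates. The difference of the responses, knockout minus control, was under 0.3 in size for 25 of the 26 genes and ran from −0.28 (Sema4c) to 0.62 (Plxnd1). No test of these differences was possible with 1 library for each combination.

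Promoter sequences of 6 of the genes described are shown, chosen to cover genes that were higher, lower or level. They were read from RefSeq (GRCm38.p6), which matched 51 of the 68 genes and 22 of the 29 that reached 5 FPKM. The genes Icam2, Itga6, Itgal, Itgb2, Plxna1, Selplg and Vcam1 had no entry. Each window runs 5′ to 3′ over 250 bases before and 50 after the start. Capitals mark matches on either strand to 5 motifs: the PU-box core GAGGAA of Ets factors such as PU.1 and Spi-C, the AP-1 motif TGANTCA, the STAT motif TTCNNNGAA, a kappaB motif (GGG, a pair of any bases, then TTTCC) and an interferon element (GAAA, a pair of any bases, then GAAA). Matches of different motifs overlapped in none of the windows printed. Icam1 (chr9:21015690-21015989, plus strand) and Sema4c (chr1:36558332-36558631, minus strand, the upstream of 2 listed starts) were higher with LPS, as was Itgav (chr2:83724147-83724446, plus strand), Plxnc1 (chr10:94944796-94945095, minus strand) was lower, and Itgam (chr7:128062390-128062689, plus strand) was level. Plxnd1 (chr6:115994956-115995255, minus strand) is shown for its genotype difference without LPS.
Icam1: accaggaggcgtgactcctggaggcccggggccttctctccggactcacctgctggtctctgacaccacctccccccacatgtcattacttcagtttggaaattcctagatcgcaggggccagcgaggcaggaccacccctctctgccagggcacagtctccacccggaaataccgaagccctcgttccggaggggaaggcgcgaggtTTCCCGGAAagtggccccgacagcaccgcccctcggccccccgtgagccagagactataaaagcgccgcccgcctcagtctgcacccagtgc
Sema4c: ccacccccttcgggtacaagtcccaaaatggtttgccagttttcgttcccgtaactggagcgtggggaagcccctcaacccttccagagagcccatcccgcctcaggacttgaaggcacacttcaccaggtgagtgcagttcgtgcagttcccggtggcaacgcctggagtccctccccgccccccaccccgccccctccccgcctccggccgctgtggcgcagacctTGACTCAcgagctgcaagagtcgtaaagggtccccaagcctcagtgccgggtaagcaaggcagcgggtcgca
Itgav: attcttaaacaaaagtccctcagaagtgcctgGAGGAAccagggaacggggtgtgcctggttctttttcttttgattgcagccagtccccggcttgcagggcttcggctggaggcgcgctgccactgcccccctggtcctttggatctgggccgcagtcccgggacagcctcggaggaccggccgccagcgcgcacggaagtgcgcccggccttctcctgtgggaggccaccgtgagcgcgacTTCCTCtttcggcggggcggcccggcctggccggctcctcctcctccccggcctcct
Plxnc1: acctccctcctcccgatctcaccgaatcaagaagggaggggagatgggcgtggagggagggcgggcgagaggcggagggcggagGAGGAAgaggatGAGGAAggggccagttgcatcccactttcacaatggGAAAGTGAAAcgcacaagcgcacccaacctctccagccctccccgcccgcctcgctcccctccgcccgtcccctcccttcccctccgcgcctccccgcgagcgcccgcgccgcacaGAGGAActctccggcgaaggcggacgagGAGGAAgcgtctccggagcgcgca
Itgam: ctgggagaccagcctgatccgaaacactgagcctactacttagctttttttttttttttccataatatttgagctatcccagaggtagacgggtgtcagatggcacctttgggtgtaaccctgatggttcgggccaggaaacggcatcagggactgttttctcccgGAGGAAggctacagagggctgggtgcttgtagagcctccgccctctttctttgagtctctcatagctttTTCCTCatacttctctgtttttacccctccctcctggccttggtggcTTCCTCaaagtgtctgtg
Plxnd1: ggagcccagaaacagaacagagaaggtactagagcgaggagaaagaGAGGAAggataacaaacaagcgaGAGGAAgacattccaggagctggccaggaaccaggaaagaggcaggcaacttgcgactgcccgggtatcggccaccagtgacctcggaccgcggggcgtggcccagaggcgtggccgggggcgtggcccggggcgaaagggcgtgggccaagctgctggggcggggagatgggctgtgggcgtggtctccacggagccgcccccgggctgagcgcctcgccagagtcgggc

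The Icam1 window holds 1 STAT motif, from −42 to −34, and no PU-box core. The Sema4c window holds 1 AP-1 motif, from −22 to −16. The PU-box core occurs 2 times in Itgav, 4 times in Plxnc1, 3 times in Itgam and 2 times in Plxnd1, and Plxnc1 also holds the interferon element from −118 to −109. Of the 51 genes with a promoter, 21 (41.2%) held the PU-box core, 8 (15.7%) the AP-1 motif, 4 (7.84%) the STAT motif, 4 (7.84%) the interferon element and 1 (Sema6c) the kappaB motif. Among all 27025 genes of the table the shares were 31.3%, 8.97%, 9.55%, 3.99% and 1.89%. Of the 11 genes with the PU-box core and at least 5 FPKM, Cd44, Itga5, Itgav and Sema4a were called higher with LPS in both genotypes. Nrp1 and Plxnc1 were called lower, and Itga11, Itgam, Itgb1, Itgb7 and Plxnd1 neither. Of genes at that level whose promoter lacked it, Cd47, Icam1, Itga4, Nrp2 and Sema4c were called higher in both genotypes. Itgb8 was called higher in the knockout, and none of these genes was called lower. A link between motif and call was not tested. A match is a description of the letters in this window, and sites that depart from the letters searched are not marked.

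Between genotypes, differences were small and few genes were called. Without LPS, none of 24 genes was at least 1.5-fold higher in the knockout, where 1.75% of all genes were, and 1, Plxnd1, was at least 1.5-fold lower, where 1.37% of all genes were. With LPS, 1 of 27 was higher, Sema4d, against 2.86% of all genes, and 1 was lower, Itga11, against 1.69% of all genes. None reached 2-fold in either state, where 0.902% of all genes were 2-fold apart without LPS and 0.892% with LPS. The median log2 ratio, knockout over control, was 0.13 without LPS and 0.19 with LPS, beside 0.07 and 0.09 over all genes. Of 22 genes that passed the minimum in both states, 16 lay above 0 in both, 4 below 0 in both, and 2 changed sign. Scaling between libraries has a part in this count, and no share of all genes is set beside it. With median-ratio scaling the medians were 0.07 without LPS and 0.13 with LPS, beside 0.01 and 0.02 over all genes.

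Plxnd1, the plexin gene best known as the receptor for SEMA3E in blood vessels, was at 14.2 FPKM in knockout without LPS against 23.5 FPKM in control without LPS, a ratio of 0.603 (0.563 to 0.647). With LPS it stood at 27.1 FPKM in knockout and 28.5 FPKM in control, a ratio of 0.95 (0.888 to 1.02). The knockout library without LPS was thus the low one of the 4, and the other 3 lay between 23.5 and 28.5 FPKM. With a pseudocount of 5 FPKM the log2 ratio without LPS, −0.57, was under 1.5-fold. Sema3e, its ligand gene, stayed under 0.1 FPKM.

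Itga11, the alpha chain gene of a collagen receptor of fibroblasts, was lower in the knockout in both states, at 6.11 FPKM against 10.1 FPKM in control with LPS (0.606, 0.516 to 0.708) and at 6.01 FPKM against 9.13 FPKM in control without LPS (0.659, 0.578 to 0.748). LPS moved it little in either genotype (log2 ratios of 0.02 in knockout and 0.13 in control). Stromal markers were lower in the knockout in the same libraries: over the 8 of 10 that reached 5 FPKM, the median log2 ratio was −0.66 with LPS and −0.78 without. Acta2, the smooth muscle actin gene, had −1.04 and −1.11, and Col1a1 −0.71 and −0.82, while Dcn had 0.09 and 0.04. The part of stromal cells in the Itga11 and Plxnd1 values was not tested.

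**Figure D4:**
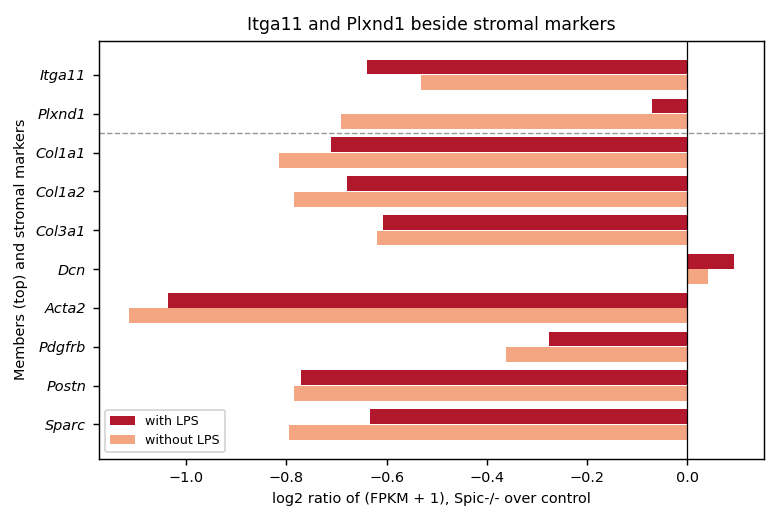
Log2 ratio of (FPKM + 1), Spic-/- over control, with LPS (dark bars) and without LPS (light bars), for Itga11 and Plxnd1 (above the dashed line) and the 8 stromal markers that reached 5 FPKM. Each bar compares 1 library with 1 library. Itga11 stands at −0.64 and −0.53 with and without LPS, beside stromal medians of −0.66 and −0.78, and Plxnd1 at −0.07 and −0.69.

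Sema4d was higher in the knockout in both states, at 114.7 FPKM against 73.4 FPKM in control with LPS, a ratio of 1.56 (1.49 to 1.64), and at 103 FPKM against 78.7 FPKM in control without LPS, a ratio of 1.31 (1.26 to 1.36). Both knockout libraries lay above both control libraries. After median-ratio scaling the log2 ratio with LPS was 0.56, under 1.5-fold. The SEMA4D receptor gene Cd72 was at 159 FPKM in knockout against 113 FPKM in control with LPS, and at 255 FPKM in knockout against 169 FPKM in control without LPS, log2 ratios of 0.48 and 0.59. Sema4c went the other way, at 15.8 FPKM in knockout against 23.1 FPKM in control with LPS, a ratio of 0.684 (0.61 to 0.767), and after median-ratio scaling its log2 ratio, −0.59, passed 1.5-fold. Without LPS it was at 1.22 FPKM in knockout and 1.64 FPKM in control. Within a library, Sema4c stood at 0.138 (0.125 to 0.152) of Sema4d in knockout with LPS against 0.314 (0.291 to 0.339) in control with LPS.

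The leukocyte integrin chains were higher in the knockout by less than 1.5-fold on the scale used for calls. Itgam had log2 ratios of 0.44 with LPS and 0.42 without, Itgb2 0.26 and 0.22, and Itgal 0.31 and 0.56. For Itgal without LPS the ratio of plain FPKM was 1.51 (1.37 to 1.67), so that it passed 1.5-fold with a pseudocount of 0.1 FPKM (0.59). Itgax had 0.48 with LPS, and without LPS it was under the 5 FPKM minimum in both genotypes. Among the ligands and other receptors, Icam1 had 0.24 with LPS and 0.43 without, Cd44 0.33 and 0.30, Itga5 0.24 and 0.33, Vcam1 0.26 and 0.07, Nrp2 0.25 and 0.14, Cd47 0.13 and 0.23, and Nrp1 −0.25 and −0.16. The macrophage markers Csf1r (0.23 with LPS, 0.21 without) and Emr1 (0.29 and 0.32) lay in the same range.

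**Figure D5:**
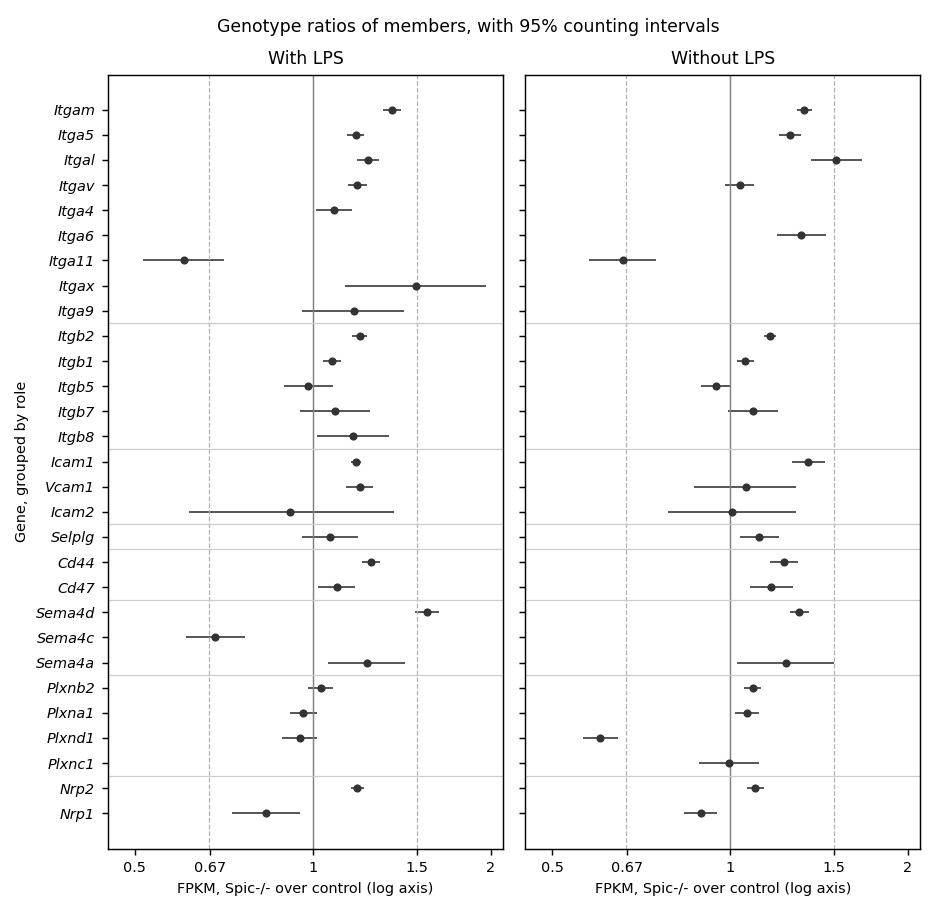
Ratio of FPKM, Spic-/- over control (log axis), with LPS (left) and without LPS (right), for the genes that passed the 5 FPKM minimum in that comparison. Points are ratios of 1 library to 1 library, bars are exact 95% counting intervals, and dashed lines mark 1.5-fold in each direction on plain FPKM, whereas calls used FPKM + 1. Most points lie slightly to the right of 1. Sema4d (1.56) and Itga11 (0.606) stand apart with LPS, and Plxnd1 (0.603) without LPS.

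Companion genes were followed in 6 lists. Of integrin activation and adhesion complex genes, 10 of 30 were 2-fold or more higher with LPS in the knockout and 9 of 32 in the control, and none was lower, beside the shares of all genes given above. The kinase gene Src stood at 85.7 against 7.07 FPKM with and without LPS in the knockout and at 68.7 against 4.93 FPKM in the control. In the control Src passed the 5 FPKM minimum only through the library with LPS. The actin regulator gene Vasp was at 564 against 95.4 FPKM in the knockout and at 460.1 against 77.0 FPKM in the control. Syk, the kinase gene downstream of beta 2 integrins, had log2 ratios of 2.56 in the knockout and 2.40 in the control. Among genes of integrin activators, Tln1 (talin), at 0.19 and 0.14, and Fermt3 (kindlin 3, the hematopoietic form), at 0.11 and 0.16, were near level. Rap1b, of the same list, had 1.27 in the knockout and 1.34 in the control, and Apbb1ip 1.07 and 0.91. Between genotypes, none was 1.5-fold higher, where 1.75% of all genes were without LPS and 2.86% with LPS. Without LPS, 3 of 32 were lower in the knockout (Fermt2, Vcl and Tgfb1i1), where 1.37% of all genes were. Fermt2 and Tgfb1i1 passed the 5 FPKM minimum only through the control library. With LPS none of 30 was lower, where 1.69% of all genes were.

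Integrin ligands and matrix genes differed mostly by genotype. Without LPS 12 of 18 were at least 1.5-fold lower in the knockout, where 1.37% of all genes were, and 2 higher (Spp1 and Tgfbi), where 1.75% were. With LPS 10 of 20 were lower, where 1.69% of all genes were, and none higher, where 2.86% were. Tnc and Nid1 without LPS, and Fbn1 with LPS, passed the 5 FPKM minimum only through the control library. This list shares Col1a1, Col1a2, Col3a1 and Postn with the stromal markers, whose part in these counts was not tested. Fn1, the fibronectin gene, was at 46.3 FPKM in knockout against 78.2 FPKM in control with LPS and at 32.8 FPKM in knockout against 59.7 FPKM in control without LPS. Thbs1, whose product thrombospondin 1 binds CD47, was at 48.5 FPKM in knockout against 67.2 FPKM in control with LPS and at 43.0 FPKM in knockout against 109 FPKM in control without LPS. The matricellular gene Ctgf stood at 22.4 FPKM in knockout against 44.6 FPKM in control with LPS and at 44.3 FPKM in knockout against 89.7 FPKM in control without LPS, and Thbs2 had genotype log2 ratios of −0.94 and −1.01. Spp1, the osteopontin gene, whose product binds alpha v integrins and CD44, was the member of the list called with LPS: 2196 against 756 FPKM with and without LPS in the knockout and 1632 against 477 FPKM in the control. That is 1 of 17 genes in the knockout and 1 of 20 in the control, where 13.7% and 12.3% of all genes were higher.

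Of other adhesion receptors, 6 of 13 were 2-fold or more higher with LPS in the knockout and 5 of 12 in the control, with none lower, beside 13.7% and 12.3% of all genes higher and 7.74% and 6.5% lower. In the knockout F11r, Cd200 and Pvrl2 passed the 5 FPKM minimum only through the library with LPS. Cd200, an inhibitory ligand gene, stood at 50.2 against 4.55 FPKM with and without LPS in the knockout and at 48.5 against 5.77 FPKM in the control. The nectin-like receptor gene Pvr had log2 ratios of 2.11 and 1.76, the nectin 2 gene Pvrl2 2.29 and 1.63, and the phosphatase gene Ptprj 2.14 and 1.99. None of this list was called by genotype. Of 11 tetraspanin genes, whose products associate with integrins, 2 were 2-fold or more higher with LPS in each genotype and 1 was lower. These counts stand beside the same shares of all genes. Cd82 (1.24 and 1.49 in knockout and control) and Tspan3 (1.87 and 1.54) were higher. Tspan14 (−1.23 and −1.15) was lower, while Tspan4 had −0.91 and −0.78. By genotype 1 of 11, Cd9, was called higher in the knockout without LPS, where 1.75% of all genes were. It stood at 135 FPKM in knockout without LPS against 85.6 FPKM in control without LPS.

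Among semaphorin and plexin partners, 4 of 18 were 2-fold or more higher with LPS in the knockout and 4 of 20 in the control (Met, Rnd1, Rnd3 and Rras2 in each), beside 13.7% and 12.3% of all genes, and Mical1 was lower in the control. Met, Rnd1 and Rras2 passed the 5 FPKM minimum only through the library with LPS in both genotypes. Mical1 passed it in the control only through the library without LPS. Rnd1, a gene whose product binds plexins, stood at 197 FPKM in knockout with LPS against 1.16 FPKM without, and at 312 FPKM in control with LPS against 0.994 FPKM without. With LPS it was the 1 gene of 18 in this list called by genotype (−0.66), where 1.69% of all genes were lower. Met, the hepatocyte growth factor receptor gene, whose product associates with B plexins, was at 43.8 against 4.71 FPKM in the knockout with and without LPS and at 33.4 against 3.46 FPKM in the control. The GTPase genes Rnd3 and Rras2 had log2 ratios of 1.94 and 2.11 in the knockout and 1.98 and 1.64 in the control. Without LPS, of 17 genes Cd72 was called higher and Ptk7 lower in the knockout, where 1.75% and 1.37% of all genes were. Ptk7 passed the 5 FPKM minimum only through the control library. Of the 3 hyaluronan genes that passed the minimum, Stab1, a scavenger receptor gene, was at 15.2 against 57.8 FPKM with and without LPS in the knockout and at 14.5 against 47.97 FPKM in the control. The hyaluronidase gene Hyal1 was lower too (−1.52 and −1.96), and Hyal2 had −0.39 and −0.24. Of all genes, 7.74% in knockout and 6.5% in control were lower. Hyal1 passed the 5 FPKM minimum only through the library without LPS in both genotypes.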

How the data were processed

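Per the submitters' processing notes, the authors used Cuffnorm 2.2.1, SAMtools 0.1.19, Bowtie2 2.2.3 and TopHat2 2.0.13 (listed without role or order) and the mm10 build. Total RNA was extracted with an RNeasy kit, and the library kit was a stranded TruSeq one for mRNA, per the labels' protocols. The sources used here give neither the annotation nor the strand setting of the counting. Each library had 1 table, in which, per the file headers, the authors deposited FPKM. FPKM were used as deposited, and log2 ratios of (FPKM + 1) were computed in Python 3.11.15 with pandas 2.3.3, numpy 2.4.6 and scipy 1.17.1.

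Depth was estimated from the spacing of values under 0.3 FPKM between libraries. As a check, each value was divided by the relative step of its library: of 2419 genes above 0 in at least 3 libraries and at most 0.6 on that scale, 1916 (79.2%) had values that were all whole multiples, to within 0.02, of their lowest value divided by a whole number from 1 to 6. To set the absolute scale, 309 single-transcript genes of GENCODE vM21 were used, with their exonic length less 210 bases. Fragments of a gene were estimated with the median length of its basic protein-coding transcripts, so intervals are approximate. Locations are from GENCODE vM21 (GRCm38, the mm10 build). Exons of Icam1, Itga4, Itgav, Plxna1, Sema4c and Vcam1 overlap those of a gene on the other strand, and exons of Itgam, Nrp1, Plxnc1 and Sema4a those of a gene on the same strand, whose fragments may be shared.

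Genes named with full values were those called in a comparison, the 10 with the highest mean, 19 named by symbol, and from each companion list up to 4 with the largest ratio. Other genes of the lists were named after their values were seen, and some genes are not reported here. Members and lists were chosen with earlier results of these data known. No group has a replicate, so no test was run. The calls and intervals were checked on simulated libraries with counting error only and known fragment numbers. That check does not cover variation between cultures or the estimate of fragments. Alternatives were pseudocounts of 0.1 and 5 FPKM, minimums of 1 and 20 FPKM or none, 2 scalings and other thresholds.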

Additional observations from a re-analysis of the deposited data

Results flagged for a closer look

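Sema4d moved in opposite directions with LPS in the 2 genotypes, beyond the counting intervals, and this difference was not tested. It was at 114.7 FPKM with LPS against 103 FPKM without in the knockout (ratio 1.11, 1.07 to 1.16) and at 73.4 FPKM with LPS against 78.7 FPKM without in the control (ratio 0.933, 0.893 to 0.974). The difference of the log2 ratios, knockout minus control, was 0.25. After median-ratio scaling the log2 ratios were −0.01 in knockout and −0.25 in control, and after upper-quartile scaling −0.03 and −0.27, so that the opposite signs held as deposited and not under either scaling.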

How the results depend on the processing

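No paired analysis was possible because each group has 1 library and the labels carry no replicate numbers. The numbers of genes at least 2-fold higher with LPS stayed within 1.5 times of 12 in knockout under every alternative, and of 11 in control except at a 3-fold threshold (7). The 3 lower genes became 1 in each genotype with a minimum of 20 FPKM (Nrp1) and at 3-fold (Itga6). The median LPS ratio of 0.49 in knockout was 0.01 with no minimum, 0.33 with median-ratio scaling and 0.31 with upper-quartile scaling. That of 0.32 in control was 0.42 with a minimum of 20 FPKM, 0.02 with none, 0.17 with median-ratio scaling and 0.15 with upper-quartile scaling. The all-gene median with LPS, 0.12 in knockout and 0.11 in control, was −0.06 and −0.07 with upper-quartile scaling.

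For genotype without LPS, 0 higher genes became 1 with a pseudocount of 0.1 FPKM (Itgal). The 1 lower gene became 2 with that pseudocount and after either scaling (Itga11 joined Plxnd1), and 0 with a pseudocount of 5 FPKM or at 2-fold. The median of 0.13 was 0.01 with no minimum. For genotype with LPS, the 1 higher gene became 0 after either scaling and at 2-fold. The 1 lower gene became 0 with a pseudocount of 5 FPKM, a minimum of 20 FPKM or at 2-fold, and 2 after either scaling (Sema4c joined Itga11). The median of 0.19 was 0.03 with no minimum. Among all genes, median-ratio scaling moved the share of higher genes among LPS calls from 63.9% to 52.4% in knockout and from 65.5% to 54.2% in control, and among genotype calls from 56.2% to 44.8% without LPS and from 62.9% to 46.7% with LPS. No call of a named gene changed sign under the pseudocounts and scalings run. Depth limits Itgb8, Icam4, Icam5 and Sele, whose lower values rest on few fragments.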
